A study of Mus musculus with 16 samples.

Results

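Loss of Dmp1 was examined in marrow cultures in which Fgf23 had been deleted by a Dmp1-cre transgene, separately for the stroma and for the macrophages that grew together in each dish. Both genotypes came from 12-week-old male mice that carry a homozygous floxed first exon of Fgf23 and the Cre transgene, which is driven by the Dmp1 promoter and acts in mature osteoblasts and osteocytes. The Fgf23cKO mice have both wild-type Dmp1 alleles, and their Dmp1KO/Fgf23cKO littermates lack Dmp1 in every cell. Bone marrow stromal cells were kept for 21 days in osteoblastic medium with 10 mM β-glycerophosphate, and viable cells were profiled by 10x single-cell RNA-Seq. Each genotype gave 3 cultures with tags of their own, which were pooled and run in 1 droplet reaction, so the genotypes cannot be told apart from their reactions, and the spread between cultures does not hold the spread between reactions.

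Cells with at least 500 genes and under 20% mitochondrial UMIs (unique molecular identifiers) were kept. A cell was taken as stroma when Col1a1, Col1a2, Sparc, Tagln and Tpm2 together made at least 25 of every 10000 of its gene UMIs, and otherwise as a macrophage when Lyz2, Tyrobp, Fcer1g, C1qa, C1qb and C1qc together made at least 80. The members were thus chosen by the measured UMIs of these 11 genes. Of 4021 barcodes in the 6 cultures, 3407 passed the filter, of which 390 were stroma, 2931 were macrophages and 86 were neither. The 3321 cells of both compartments are part of 17793 barcodes in the 15 samples of the series with counts.

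DMP1 is a phosphoprotein of bone matrix that mature osteoblasts and osteocytes secrete and that promotes mineralization, and its loss causes rickets and osteomalacia with an excess of FGF23. FGF23 is a hormone made by osteocytes that lowers blood phosphate through FGF receptors and Klotho in the kidney. Marrow stroma holds progenitors that turn into osteoblasts under ascorbic acid and β-glycerophosphate, while marrow macrophages clear dead cells, handle lipids, and share a precursor with osteoclasts, the cells that resorb bone. Neither Dmp1 nor Fgf23 is a typical macrophage gene.

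Stroma numbered 48, 42 and 53 cells in Fgf23cKO cultures 1 to 3 and 74, 110 and 63 cells in Dmp1KO/Fgf23cKO cultures, or 11.3, 10.8 and 10.1% of the cells against 8.75, 14.6 and 13.4%. Macrophages numbered 358, 332 and 453 against 761, 628 and 399. The stroma shares overlapped between genotypes. The cultures held between 18118955 and 35219420 gene UMIs each. The median stroma cell held 82849, 38168 and 29348 UMIs in Fgf23cKO and 58022, 22238 and 25023 in Dmp1KO/Fgf23cKO, and the median macrophage 36594, 39829 and 34557 against 35677, 36009 and 36695. Between 16.3 and 16.6% of Fgf23cKO barcodes and 12.2 to 14.5% of Dmp1KO/Fgf23cKO barcodes lay above the mitochondrial limit. No barcode was shared by cultures of the same reaction, and the third Fgf23cKO culture shared 1 with each of the first 2 Dmp1KO/Fgf23cKO cultures.

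The gates separated the compartments on markers that they had not used. Stromal identity genes such as Pdgfra, Cdh11 and Col3a1 summed to between 5758 and 6499 CPM (UMIs per 1000000 gene UMIs of that compartment and culture, scaled by TMM factors) in stroma and to between 42.8 and 56.4 CPM in macrophages, while macrophage identity genes such as Adgre1, Csf1r and Cd68 summed to between 409 and 828 CPM in stroma and to between 6018 and 6849 CPM in macrophages. The lowest stroma cells lay at 25.3 and 25.8 per 10000 in Fgf23cKO and Dmp1KO/Fgf23cKO and the highest cells outside at 23.3 and 22.4, and 24 of 143 and 21 of 247 stroma cells lay under 50. Macrophages lay from 86.9 and 85 per 10000 upwards, and the highest cells under that gate lay at 79.6 and 76.6. Of the stroma cells, 16 in Fgf23cKO (11.2%) and 22 in Dmp1KO/Fgf23cKO (8.91%) also reached the macrophage level. The gate genes themselves are given without a test. In macrophages the 5 stromal gate genes summed to between 191 and 203 CPM in Fgf23cKO and between 322 and 328 CPM in Dmp1KO/Fgf23cKO, while the 6 macrophage gate genes in stroma summed to between 2462 and 5364 CPM against 2492 to 3099 CPM. Markers of other blood cells were few but not all absent. In stroma 5 of 6 erythroid, 4 of 5 mast cell, 4 of 6 T and NK cell, 2 of 5 B cell and 4 of 8 neutrophil markers were at 0 in all 6 cultures, among them Hba-a1, Cpa3, Cd3e and Ly6g. The mast cell list was carried there by Kit, with 37, 61 and 8 UMIs in Fgf23cKO and 18, 138 and 75 in Dmp1KO/Fgf23cKO, and the T and NK cell list by Trac, with 18, 17 and 14 against 6, 9 and 10. In macrophages 3 of 6 T and NK cell, 3 of 5 mast cell, 1 of 6 erythroid, 1 of 5 B cell and 2 of 8 neutrophil markers were at 0 throughout, while S100a8 (93 to 182 UMIs per culture) and Mmp8 (146 to 354) were counted in every culture. The neutrophil list summed to between 9.62 and 18.3 CPM in Fgf23cKO and between 6.10 and 8.25 CPM in Dmp1KO/Fgf23cKO in stroma, and to between 20.8 and 24.5 CPM against 16.3 to 19.7 CPM in macrophages, and its part in the results was not tested. Endothelial markers summed to at most 4.21 CPM in stroma and 12.6 CPM in macrophages. The 6 chondrocyte markers in stroma summed to between 147 and 701 CPM in Fgf23cKO and between 94.1 and 179 CPM in Dmp1KO/Fgf23cKO. Most of the highest sum was aggrecan, Acan, at 67.7, 51.8 and 468 CPM against 15.1, 0.314 and 0 CPM. Sox6 was at 27.3, 46.6 and 162 CPM against 6.48, 2.51 and 5.50 CPM. Both were higher in every Fgf23cKO culture, most of all in the third, but 3 of the 5 markers tested had a positive difference. Comp was at 53.7, 11.8 and 8.41 CPM against 71.5, 53.8 and 46.2 CPM. The part of these cartilage genes in the stroma results was not tested.

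Dmp1 was low in the double knockout in both compartments. Stroma held 907, 1149 and 115 Dmp1 UMIs in Fgf23cKO and 76, 47 and 26 in Dmp1KO/Fgf23cKO, or 205, 357 and 43.97 CPM against 14.5, 7.37 and 7.15 CPM. The groups did not overlap, and the difference of -4.37 on the log2 scale missed the threshold in edgeR's quasi-likelihood test (SE 0.84, adjusted p = 0.174, Benjamini-Hochberg). A single cell held 27.7, 33.5 and 70.4% of the Fgf23cKO UMIs, and Dmp1 was found in 43.8, 26.2 and 15.1% of Fgf23cKO stroma cells against 9.46, 11.8 and 12.7% of Dmp1KO/Fgf23cKO stroma cells (with cells thinned to 10000 UMIs, 27.5, 28.6 and 8.33% against 6.78, 1.47 and 10%). Stroma shares after this thinning, here and below, cover only cells with at least 10000 UMIs. These were 40, 28 and 36 stroma cells in Fgf23cKO and 59, 68 and 40 in Dmp1KO/Fgf23cKO. Macrophages held 22, 25 and 31 Dmp1 UMIs in Fgf23cKO and 0 in each Dmp1KO/Fgf23cKO culture, where 0 of 1788 cells with a UMI allow up to 0.168% of cells with a Dmp1 UMI at this depth. Counts are taken near the 3′ end and the sources used here do not say which part of Dmp1 is deleted, so the UMIs left in the double knockout do not say whether the deleted part is transcribed. Under the same gates, stroma of Dmp1KO cultures 2 and 3, from another reaction, held 0 Dmp1 UMIs in 63 cells and 3 in 87 cells. The source of the UMIs left in the double knockout was not tested. Fgf23, whose floxed exon is the first, gave 0, 1 and 0 UMIs in Fgf23cKO stroma and 0 in Dmp1KO/Fgf23cKO stroma (0 of 247 cells, which allows up to 1.21% of cells with a UMI), so its deletion could not be examined at this depth. In macrophages it gave 8, 0 and 0 UMIs against 1, 0 and 0.

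In macrophages, 3821 of 12857 genes tested differed between the genotypes at a Benjamini-Hochberg adjusted p under 0.1, which is 29.7% of them (1812 higher and 2009 lower in Dmp1KO/Fgf23cKO). The changes were small for most of these genes, with a median size of 0.32 on the log2 scale, and 343 genes changed by more than 2-fold. The median over all genes tested was -0.0023 on that scale. In stroma, 13 of 12065 genes passed, which is 0.108% (5 higher, 0.0414%, and 8 lower, 0.0663%). The biological coefficient of variation between cultures was 0.205 in stroma and 0.069 in macrophages. Without a correction, 1672 stroma genes and 4517 macrophage genes had p under 0.05. Of 10 genes next to Dmp1 on its chromosome that were tested in macrophages, 3 rose and 2 fell, and of 11 tested in stroma 0 passed.

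Hal, histidine ammonia-lyase, the enzyme that starts the breakdown of histidine, was the macrophage gene with the largest fall among those named. Hal stood at 66.2, 71.5 and 63.2 CPM in Fgf23cKO macrophages and at 1.49, 1.01 and 0.836 CPM in Dmp1KO/Fgf23cKO macrophages, a change of -5.83 on the log2 scale (SE 0.13, adjusted p = 2.29e-09). For the genes that follow, the first value in parentheses is this log2 fold change of Dmp1KO/Fgf23cKO over Fgf23cKO, negative where the double knockout was lower. A Hal UMI was found in 48.3, 49.4 and 40.4% of Fgf23cKO macrophages and in 3.68, 3.34 and 2.51% of Dmp1KO/Fgf23cKO macrophages. With every cell thinned to 10000 UMIs, which left out between 9 and 24 shallower cells per culture, the shares were 26.6, 28.3 and 22.4% and 1.21, 1.47 and 0.515%. For a gene of the other compartment, stromal Slit3, the share of macrophages with a UMI was between 0.752 and 2.89%, while for the far more abundant stromal gene Ibsp it was 82.1, 86.7 and 81.9% in Fgf23cKO and 77.4, 75.8 and 77.2% in Dmp1KO/Fgf23cKO. The share of macrophages with a UMI of a stromal gene thus differed with the gene, and the source of these UMIs was not tested. For Hal, every Fgf23cKO culture was far above every double knockout culture, both in level and in the share of cells. The naming rule required that the levels not overlap. Hal lies at chr10:93488768-93519304 (plus strand, GRCm38). The next gene on the chromosome, Amdhd1 (chr10:93523338-93540033), whose product acts later in histidine breakdown, held 15, 27 and 20 UMIs against 1, 2 and 0. It passed the filter on low counts only through Fgf23cKO, where it is higher, so no test of it is given. Lta4h, on the other side at chr10:93453411-93484875, encodes leukotriene A4 hydrolase and fell by 0.41 on the log2 scale, from 39.4, 40.9 and 39.5 to 28.99, 29.8 and 31.8 CPM. These neighbours were looked at after the values of Hal were seen.

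Among the other macrophage genes named for a fall, Ctsk, the collagen-cutting protease of osteoclasts, stood at 162, 79.3 and 118 CPM in Fgf23cKO and 38.97, 19.96 and 36.1 CPM in Dmp1KO/Fgf23cKO (-1.92, SE 0.39, adjusted p = 0.0318). A single cell held 33.6, 18.9 and 35.1% of the Ctsk UMIs of the Fgf23cKO cultures, and Ctsk was also found in 83.3, 71.4 and 64.2% of their stroma cells. The scavenger receptor Marco was at 283, 413 and 166 CPM against 106, 87.7 and 131 CPM (-1.41, SE 0.39, adjusted p = 0.0675). It was found in 67.3, 74.4 and 57.4% of cells against 41.8, 43.2 and 43.1% (thinned, 46.7, 54.7 and 35.4% against 23.9, 26.1 and 27.6%), and the Fgf23cKO cultures were uneven, with culture 3 lowest. Vsig4, a complement receptor of resident macrophages, was at 216, 250 and 181 CPM against 80.2, 101 and 71.6 CPM (-1.35, SE 0.16, adjusted p = 0.00265). The share of cells with a Vsig4 UMI was 46.9, 48.8 and 42.8% against 24.2, 27.9 and 26.6% (thinned, 25.8, 27.3 and 24.9% against 11.8, 13.9 and 11.9%). Cd207, or langerin, a lectin known from Langerhans cells, stood at 83.7, 72.3 and 87.4 CPM against 22.5, 20.5 and 35.7 CPM (-1.66, SE 0.21, adjusted p = 0.00472), and the chemokine Cxcl14 at 123, 116 and 137 CPM against 44.1, 35.4 and 50.1 CPM (-1.54, SE 0.12, adjusted p = 2.81e-04). In all of these genes the 3 Fgf23cKO cultures lay above the 3 double knockout cultures, which the naming rule required. The same held for 20.4% of all genes tested in macrophages. The calcium channel subunit Cacna1a fell by 1.11 on the log2 scale, with little spread among cultures, and the kinase Dmpk by 1.32. Pcdh7, a protocadherin, fell by 1.31, Fabp7, a fatty acid binding protein, by 1.23, and Prc1, which organises the spindle midzone in cell division, by 1.21. Lyz1 fell by 1.38, but it is a close copy of the gate gene Lyz2 and the reads of the pair may be divided in error.

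Among the macrophage genes named for a rise, the largest change was in Ltc4s, the synthase of the inflammatory lipid leukotriene C4, at 24.5, 33.4 and 24.1 CPM in Fgf23cKO and 83.3, 94.1 and 80.9 CPM in Dmp1KO/Fgf23cKO (1.66, SE 0.12, adjusted p = 1.65e-04). Its UMIs were found in 38.8, 47.9 and 35.3% of cells against 67.1, 72.8 and 66.4%, and after thinning in 16.9, 22.7 and 17.7% against 41.02, 46.7 and 39.2%. Cd83, an activation marker of antigen-presenting cells, was at 105, 96.6 and 80.6 CPM against 213, 233 and 205 CPM (1.21, SE 0.09, adjusted p = 8.22e-05). Thus both rose in level and in the share of macrophages in which they were seen, with 75.98, 76.8 and 65.8% against 91.98, 92.5 and 89.5% for Cd83 (thinned, 52.4, 53.1 and 41.3% against 69.8, 74.8 and 68.04%). Arsb, the lysosomal arylsulfatase B, stood at 144, 157 and 120.1 CPM against 305, 314 and 278 CPM (1.09, SE 0.09, adjusted p = 1.62e-04). Gcn1, a partner of the amino acid sensor GCN2, was at 31.97, 28.2 and 34.1 CPM against 73.3, 73.2 and 70.01 CPM (1.20, SE 0.07, adjusted p = 1.27e-05). Gdf15, a cytokine released by stressed cells, was at 61.7, 68.6 and 50.2 CPM against 94.8, 125 and 128 CPM (0.94, SE 0.15, adjusted p = 0.00755). The Ras activator Rasgrp3 rose by 1.10 on the log2 scale, the RNA-binding protein gene Samd4 by 1.06, the lysophosphatidylserine receptor Gpr34 by 0.92 and the extracellular glutathione peroxidase Gpx3 by 0.88. Gas7 rose by 0.88, Pstpip2 by 0.88 and the cation channel Trpv4 by 0.88. None of these 12 genes had overlapping cultures, which the naming rule required. Over all genes tested in macrophages the cultures did not overlap in 40.3%, with Dmp1KO/Fgf23cKO above in 19.9%.

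**Figure D1:**
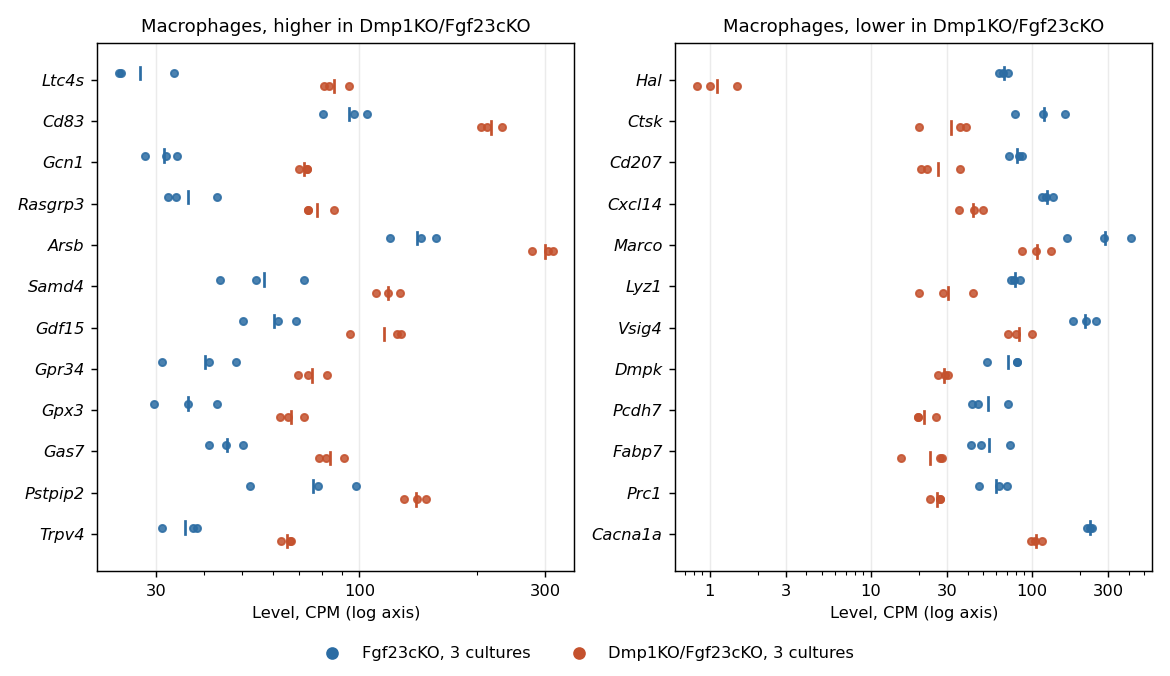
Level in CPM (log axis) of the 12 named macrophage genes that were higher (left) and the 12 that were lower (right) in Dmp1KO/Fgf23cKO, with 1 point per culture and a tick at the mean of 3 cultures. Hal stands apart, at 63.2 to 71.5 CPM in Fgf23cKO and 0.836 to 1.49 CPM in Dmp1KO/Fgf23cKO, and Marco and Ctsk show the widest spread among Fgf23cKO cultures.

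Of 11 macrophage identity genes, 3 rose, by 0.37 or less, and 0 fell, so that 27.3% were called beside 29.7% of all genes tested. Adgre1, which encodes the macrophage antigen F4/80, was at 611, 654 and 465 CPM against 621, 626 and 608 CPM (0.10, SE 0.11, adjusted p = 0.558). Of 14 scavenger and efferocytosis genes tested, 4 rose and 5 fell, beside 14.1% of all genes rising and 15.6% falling. Besides Marco and Vsig4, those that fell included the folate receptor Folr2, which went from 207, 175 and 194 to 107, 97.8 and 118 CPM (-0.84, SE 0.08, adjusted p = 2.36e-04). Those that rose included the dead-cell receptor Axl, at 56.4, 61.2 and 41.5 CPM against 78.9, 81.5 and 65.96 CPM.

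Of 19 NF-κB and inflammatory genes tested, 9 rose and 1 fell, beside 14.1% of all genes rising and 15.6% falling, and the median log2 fold change was 0.44. Nfkbia, the inhibitor that NF-κB itself induces, stood at 227, 231 and 177 CPM against 325, 329 and 322 CPM (0.62, SE 0.09, adjusted p = 0.002196). The neutrophil-attracting chemokine Cxcl2 was at 296, 335 and 239 CPM against 441, 434 and 507 CPM (0.67, SE 0.12, adjusted p = 0.00761). Tnf passed narrowly, at 114, 145 and 91.3 CPM against 158, 160.1 and 151 CPM (0.42, SE 0.15, adjusted p = 0.0927), and Il1b did not, with 11.7, 13.9 and 8.13 CPM against 14.4, 19.3 and 13.1 CPM (0.50, SE 0.21, adjusted p = 0.143). In this list the third Fgf23cKO culture was the lowest of the 6 for each of these 4 genes. Of 18 interferon-stimulated genes, 7 rose and 0 fell, or 38.9% called beside 29.7% of all genes. The antiviral tether Bst2 was at 369, 420.1 and 288 CPM against 536, 568 and 538 CPM (0.61, SE 0.12, adjusted p = 0.0121), and the transcription factor Irf7 at 13.5, 14.1 and 10.7 CPM against 18.98, 19.96 and 18.7 CPM (0.60, SE 0.10, adjusted p = 0.00384). Among 19 immediate early genes, which answer stimulation and also cell handling, 5 rose and 2 fell, or 36.8% called beside 29.7% of all genes. Ier3 was at 249, 264 and 178 CPM against 388, 392 and 388 CPM (0.76), while Egr1 went the other way, from 138, 156 and 103 to 77.1, 75.5 and 84.5 CPM (-0.75, SE 0.14, adjusted p = 0.0136). The part of cell handling in these differences was not tested.

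Genes of cholesterol efflux changed in both directions in macrophages. Apoe, the lipoprotein that carries cholesterol out of macrophages, was at 14058, 15298 and 9890.3 CPM in Fgf23cKO and 19666, 21431 and 20047 CPM in Dmp1KO/Fgf23cKO (0.64, SE 0.15, adjusted p = 0.0324). Of 22 lysosomal genes, 6 rose and 1 fell, or 31.8% called beside 29.7% of all genes tested. Psap, prosaposin, the precursor of the saposins, which help lysosomal enzymes break down sphingolipids, was at 2076, 2104 and 2023 CPM against 2509, 2497 and 2481 CPM (0.27, SE 0.05, adjusted p = 0.00459). The cholesterol exporter Abcg1 fell, from 62.1, 53.3 and 70.4 to 36.8, 40.4 and 37.5 CPM (-0.70, SE 0.09, adjusted p = 0.00147), and its regulator Nr1h3, the liver X receptor α, fell by 0.53 on the log2 scale. Of the 8 cholesterol efflux genes, 3 rose and 3 fell.

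Most cholesterol synthesis genes rose in macrophages. Of 16 members, 12 rose and 0 fell, beside 14.1% of all genes tested rising, and the median log2 fold change was 0.39. Hmgcs1, an early enzyme of the pathway, was at 29.3, 29.2 and 27.6 CPM against 44.4, 43.8 and 46.5 CPM (0.64, SE 0.06, adjusted p = 1.49e-04). Insig1, which holds back the activation of the SREBP factors that drive the pathway, was at 22.9, 22.9 and 18.5 CPM against 31.4, 31.2 and 29.9 CPM (0.53, SE 0.08, adjusted p = 0.00263), and Idi1, isopentenyl diphosphate isomerase, at 10.9, 10.6 and 8.91 CPM against 13.6, 12.3 and 14.9 CPM (0.42, SE 0.11, adjusted p = 0.0232). In each of these genes, the lowest double knockout culture lay above the highest Fgf23cKO culture. With cells thinned to 2000 UMIs, 1 of the 12 members then tested rose.

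Most cell cycle genes fell in macrophages. Of 16 members, 14 fell and 0 rose, beside 15.6% of all genes tested falling, and the median log2 fold change was -0.50. Top2a, the topoisomerase that untangles chromosomes before mitosis, was at 139, 150 and 95.1 CPM against 74.97, 60.8 and 69.8 CPM (-0.90, SE 0.18, adjusted p = 0.0185), and Ube2c, of the anaphase-promoting machinery, at 62.2, 51.2 and 39.3 CPM against 27.5, 22.4 and 30.4 CPM (-0.93, SE 0.19, adjusted p = 0.0176). Cdk1, the kinase that drives mitosis, was at 56.8, 55.9 and 39.5 CPM against 36.2, 32.1 and 39.2 CPM (-0.50, SE 0.14, adjusted p = 0.0467), with the third Fgf23cKO culture only just above the double knockout range. The proliferation marker Mki67 stood at 141, 161 and 120.2 CPM against 109, 84.4 and 96.4 CPM (-0.54, SE 0.12, adjusted p = 0.0212), while the share of cells with a Mki67 UMI overlapped between the genotypes at 39.9, 45.8 and 34.2% and 37.2, 36.1 and 38.8%. After thinning to 10000 UMIs the shares were 22.6, 28.9 and 20.3% and 19.7, 18.3 and 20.1%. The count of members that fell was 9 without the first Fgf23cKO culture, 8 without the second Dmp1KO/Fgf23cKO culture and 2 of 14 tested with cells thinned to 2000 UMIs.

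Promoters of both groups are shown because most of their members were called in macrophages, in opposite directions. RefSeq (GRCm38.p6) gave a promoter window for 15 of the 16 cell cycle genes and 10 of the 16 cholesterol synthesis genes. Only the last 150 bases before the start were searched, on both strands, for CCAAT, the box bound by NF-Y, and for TTTGAA, the core of the CHR element of cell cycle promoters. In the windows shown no match of one overlaps a match of the other. CCAAT was found for 12 of 15 cell cycle genes and 9 of 10 cholesterol synthesis genes, beside 24.5% of all 32851 windows. TTTGAA was found for 5 of 15 cell cycle genes and 0 of 10 cholesterol synthesis genes, beside 9.07% of all windows. A gene counted when any of its windows matched, while the shares over all are per window (32851 windows of 27025 symbols), so the units differ. Each sequence runs 5′ to 3′ towards the start site, and capitals mark either motif on the strand shown or its reverse complement, ATTGG or TTCAAA. A match describes letters and is not evidence of binding.
Cdk1 chr10:69352913-69353062, minus strand: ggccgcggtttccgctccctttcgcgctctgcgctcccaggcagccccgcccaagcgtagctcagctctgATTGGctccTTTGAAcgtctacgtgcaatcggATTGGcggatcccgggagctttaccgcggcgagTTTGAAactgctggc
Ube2c chr2:164769779-164769928, plus strand: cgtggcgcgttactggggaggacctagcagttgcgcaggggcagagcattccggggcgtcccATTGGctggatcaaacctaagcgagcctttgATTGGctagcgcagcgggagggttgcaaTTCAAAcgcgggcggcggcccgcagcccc
Top2a chr11:99024190-99024339, minus strand: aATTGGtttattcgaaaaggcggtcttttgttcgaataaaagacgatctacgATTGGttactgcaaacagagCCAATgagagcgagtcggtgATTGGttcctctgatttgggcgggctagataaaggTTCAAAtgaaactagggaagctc
Hmgcs1 chr13:119690201-119690350, plus strand: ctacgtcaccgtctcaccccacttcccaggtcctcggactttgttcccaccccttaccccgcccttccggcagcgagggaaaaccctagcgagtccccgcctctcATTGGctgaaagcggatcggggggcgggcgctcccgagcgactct
Idi1 chr13:8885456-8885605, plus strand: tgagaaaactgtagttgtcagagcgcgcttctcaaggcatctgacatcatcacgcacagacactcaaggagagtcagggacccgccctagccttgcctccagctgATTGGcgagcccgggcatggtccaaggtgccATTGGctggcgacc
Insig1 chr5:28071262-28071411, plus strand: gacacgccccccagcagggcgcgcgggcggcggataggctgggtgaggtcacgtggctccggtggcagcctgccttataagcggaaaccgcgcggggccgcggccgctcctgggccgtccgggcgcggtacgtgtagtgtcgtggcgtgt
The cell cycle genes Cdk1, Ube2c and Top2a are among the 5 of 15 with TTTGAA, and their windows carry both motifs. They do not stand for the list, and a further cell cycle window that was extracted but is not printed carries CCAAT alone. Of the cholesterol group, Hmgcs1 and Idi1 carry CCAAT alone and Insig1 carries neither motif.

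**Figure D2:**
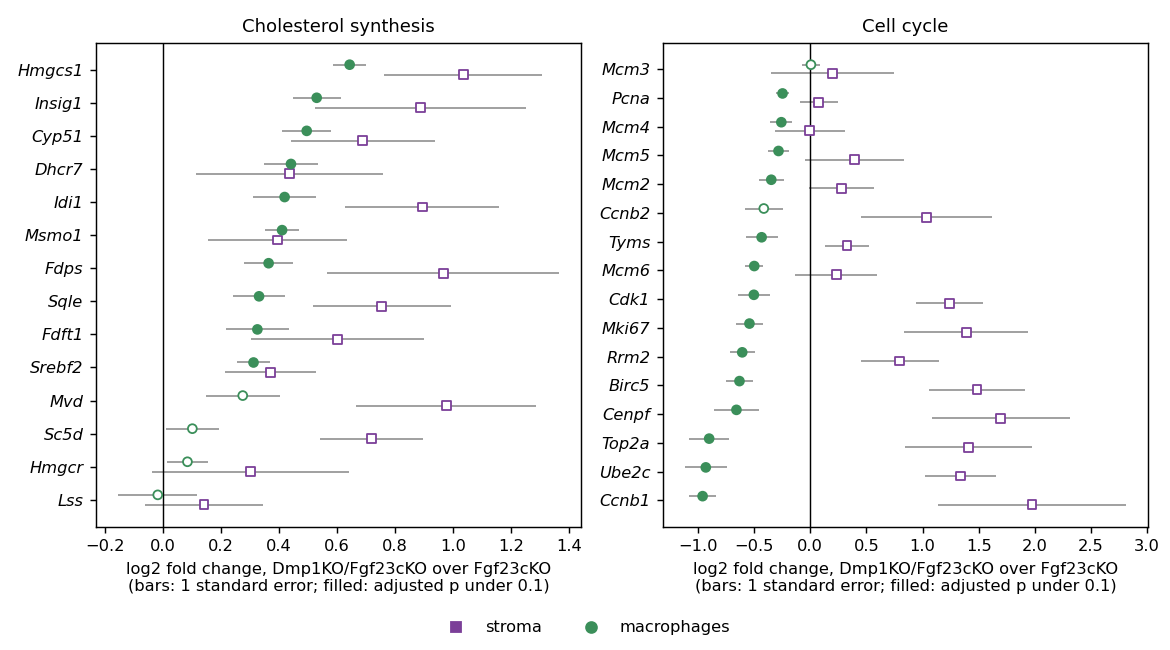
Log2 fold change, Dmp1KO/Fgf23cKO over Fgf23cKO, of 14 of the 16 cholesterol synthesis genes (left) and the cell cycle genes (right) in stroma (squares) and macrophages (circles). Bars are 1 standard error and filled symbols have an adjusted p under 0.1. In macrophages 10 of the 14 cholesterol synthesis genes drawn were higher and 14 of 16 cell cycle genes lower. No member of either list passed the threshold in stroma, where 0.108% of all genes tested did.

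Most genes of cytosolic ribosomal proteins and of the heat shock response fell in macrophages. Of 81 cytosolic ribosomal protein genes tested, 53 fell and 0 rose, beside 15.6% of all genes tested falling, with a median log2 fold change of -0.19. Rps28, of the small subunit, was at 2008, 1961 and 2104 CPM against 1402, 1421 and 1407 CPM (-0.52, SE 0.05, adjusted p = 2.24e-04). Of 9 heat shock genes, 6 fell and 0 rose. When 1 culture was left out, between 27 and 64 of the ribosomal protein genes and between 4 and 7 of the heat shock genes fell. The chaperone gene Hspd1 was at 158, 154 and 167 CPM against 129, 132 and 139 CPM (-0.26, SE 0.06, adjusted p = 0.0104). Of 11 NRF2 antioxidant genes, 1 rose and 7 fell, among them glutathione reductase, Gsr, at 75.96, 84.04 and 62.01 CPM against 57.9, 56.5 and 53.2 CPM (-0.40, SE 0.10, adjusted p = 0.0228). Of 19 hypoxia and glycolysis genes, 3 rose and 8 fell, and Pgk1, phosphoglycerate kinase, was at 187, 181 and 191 CPM against 153, 147 and 159.6 CPM (-0.28, SE 0.05, adjusted p = 0.00665). Of the 13 mitochondrially encoded genes of oxidative phosphorylation, 3 rose and 4 fell. Of 16 integrated stress response genes, 2 rose, Gdf15 among them, and 4 fell. Among 7 class II MHC genes 2 rose and 0 fell (28.6% called, beside 29.7% of all genes tested), although the median of the list was -0.91.

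Signalling genes that link marrow cells also differed in macrophages. Of 16 BMP, TGF-β and Wnt genes tested, 2 rose and 6 fell, beside 14.1% of all genes tested rising and 15.6% falling. Id1, a direct target of BMP signalling, stood at 174, 137 and 153 CPM against 81.2, 76.7 and 71.4 CPM (-1.01, SE 0.09, adjusted p = 1.49e-04), and Id3 at 421, 410.2 and 419 CPM against 315, 307 and 332 CPM (-0.39, SE 0.05, adjusted p = 0.00145). Csf1, the growth factor that macrophages depend on, rose from 6.46, 6.39 and 5.24 to 12.7, 13.9 and 14.7 CPM (1.19, SE 0.11, adjusted p = 1.76e-04), and its receptor Csf1r rose by 0.18 on the log2 scale. In stroma Csf1 was at 413, 305 and 274 CPM against 362, 302 and 272 CPM (-0.08, SE 0.18, adjusted p = 0.863). Igf1 rose by 0.28 and Igf2r, which clears IGF2, fell by 0.77. Of 14 FGF receptor and ERK response genes, 1 rose and 5 fell, by 0.48 or less, or 42.9% called beside 29.7% of all genes tested. Fgfr2 was lower, at 63.3, 53.9 and 61.2 CPM against 51.4, 48.1 and 45.1 CPM (-0.30, SE 0.07, adjusted p = 0.0182). The calcium-binding proteins S100a4 and S100a6, which mark monocytes and many other cells, were at 522, 366 and 654 CPM against 236, 187 and 336 CPM and at 585, 446 and 893 CPM against 292, 298 and 353 CPM, and both fell (-1.03 and -1.03, adjusted p = 0.0778 and 0.0513). S100a4 and S100a6 were the only ones called of 6 monocyte genes tested, or 33.3% beside 29.7% of all genes tested. Of these 6 genes, 2 had a positive difference. Of 10 osteoclast genes, Ctsk alone fell, beside 15.6% of all genes tested falling. The integrin Itgb3 was at 0.208, 0.502 and 0.482 CPM against 1.18, 1.14 and 0.707 CPM. Itgb3 passed the filter on low counts only through Dmp1KO/Fgf23cKO, where it is higher, so no test of it is given. Bone matrix genes were also counted in macrophages. Of 12 tested, 5 rose and 3 fell, or 66.7% called beside 29.7% of all genes tested. The level of stromal gate RNA was also higher in Dmp1KO/Fgf23cKO macrophages, and its part in these differences was not tested.

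Stroma changes that passed the threshold were few. The naming rule leaves out clone names, weakly expressed genes and genes with overlapping cultures. Of the 13 genes called, it kept Slc1a3, Slit3, Rflnb and Fgfr2, which rose, and Syn3 and Anxa1, which fell. Fgfr2, one of the FGF receptors of the osteoblast lineage, was at 103, 100.3 and 86.8 CPM in Fgf23cKO and 205, 177 and 233 CPM in Dmp1KO/Fgf23cKO (1.08, SE 0.13, adjusted p = 0.0815). The double knockout cultures lay above all Fgf23cKO cultures, the opposite direction to macrophages. Slit3, a secreted guidance factor, was at 77.4, 102 and 78.4 CPM against 217, 177 and 176 CPM (1.15, SE 0.15, adjusted p = 0.0815), and it was found mainly in stroma, with a UMI in 56.2, 50 and 32.1% and 58.1, 47.3 and 50.8% of stroma cells (thinned, 30, 32.1 and 27.8% and 42.4, 58.8 and 47.5%) and in at most 2.89% of macrophages. Slc1a3, a glutamate and aspartate transporter, was at 16.2, 13.7 and 18.4 CPM against 45.8, 51.6 and 50.9 CPM (1.62, SE 0.14, adjusted p = 0.0555). In the first Dmp1KO/Fgf23cKO culture 57.1% of Slc1a3 UMIs were in 1 cell, and 27.1, 35.7 and 11.3% against 24.3, 30.9 and 28.6% of stroma cells had a UMI (thinned, 0, 14.3 and 8.33% against 11.9, 25 and 25%), so the shares overlapped. Rflnb, or refilin B, which binds filamins, was at 35.2, 38.8 and 38.6 CPM against 90.4, 65.1 and 83.9 CPM (1.09, SE 0.14, adjusted p = 0.0838).

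Anxa1, annexin A1, a phospholipid-binding protein that limits inflammation, had the highest level of the called stroma genes that fell. It was at 938, 883 and 884 CPM in Fgf23cKO and 475, 461 and 503 CPM in Dmp1KO/Fgf23cKO (-0.91, SE 0.09, adjusted p = 0.07797). Its 2 groups of cultures were each tight and well apart. Anxa1 also fell in macrophages (-0.63, adjusted p = 0.0534), and its effect was not called different between the compartments (adjusted p = 0.540). A single cell held 37.7, 16.5 and 14.2% of its UMIs in the Fgf23cKO cultures and 7.55, 13.2 and 10.2% in the Dmp1KO/Fgf23cKO cultures. Syn3, synapsin III, whose gene overlaps that of the metalloproteinase inhibitor Timp3 on the other strand, was at 82.1, 81.02 and 92.1 CPM against 29.2, 41.3 and 36.3 CPM (-1.25, SE 0.15, adjusted p = 0.0815). The other 7 genes, given here after their values were seen, were Xlr, which rose, and Hal, Matn4, Dynap, AI413582, AY036118 and 1500015L24Rik, which fell. Hal, Dynap, AY036118 and 1500015L24Rik also fell in macrophages (-5.83, -4.08, -1.76 and -2.53), while AI413582 was not called there. The gene 1500015L24Rik (chr19:20324856-20444883, plus strand) spans Anxa1 (chr19:20373428-20390944, minus strand), so these 2 calls come from 1 locus. Matn4, a matrilin of cartilage and other matrices, was at 15.8, 15.5 and 10.3 CPM against 3.43, 3.45 and 3.58 CPM (-2.0, SE 0.25, adjusted p = 0.0815). Xlr and Hal passed the filter on low counts only through the genotype in which they are high. Hal was at 7.44, 9.002 and 7.26 CPM against 0.381, 1.26 and 0.825 CPM, well under its level in Fgf23cKO macrophages, and the part of macrophage RNA in it was not tested. No named stroma gene kept its call under every alternative, and without any single Dmp1KO/Fgf23cKO culture 0 stroma genes passed, against 65, 8 and 57 without Fgf23cKO cultures 1, 2 and 3.

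**Figure D3:**
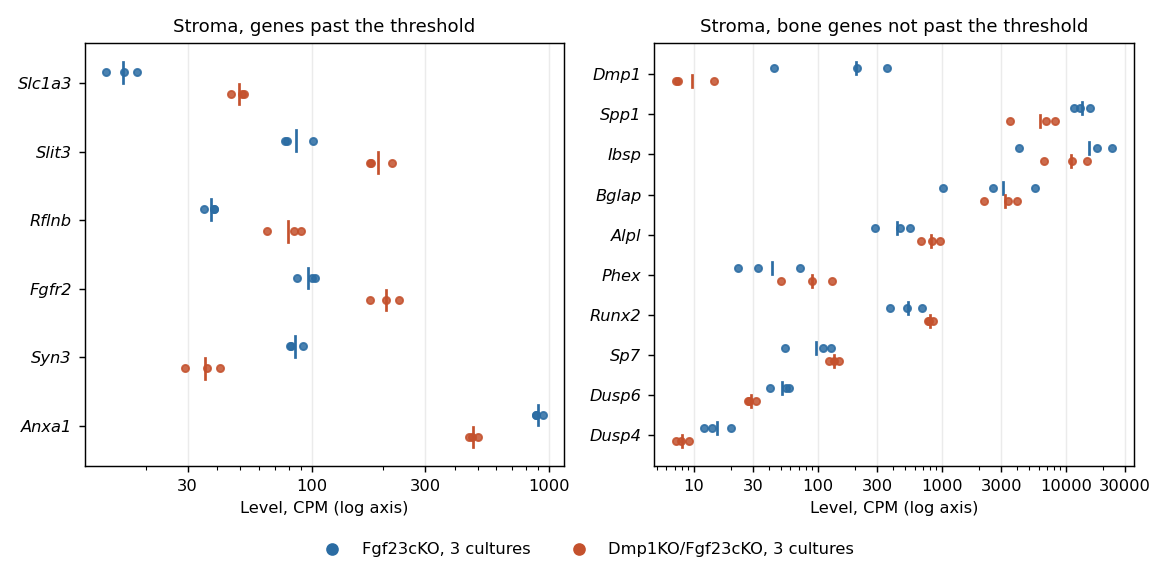
Level in CPM (log axis) of the 6 named stroma genes past the threshold (left) and of bone and FGF response genes that did not pass it (right), with 1 point per culture and a tick at the mean of 3 cultures. On the left the cultures of each genotype lie close together, as with Anxa1 at 883 to 938 CPM against 461 to 503 CPM, while Ibsp and Bglap on the right overlap between genotypes.

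No osteoblast transcription factor or bone matrix gene of the lists passed the threshold in stroma, where 0.108% of all genes tested did. Spp1, osteopontin, which binds mineral, stood at 15677, 13066 and 11693 CPM in Fgf23cKO and 8149.9, 6949 and 3553 CPM in Dmp1KO/Fgf23cKO, without overlap (-1.12, SE 0.30, adjusted p = 0.238). Ibsp, bone sialoprotein, was at 23467, 17889.5 and 4155 CPM against 6699, 14875 and 11078 CPM (-0.48, SE 0.64, adjusted p = 0.775), and osteocalcin, Bglap, at 5655, 2561 and 1023 CPM against 3415, 4040.3 and 2174 CPM (0.06, SE 0.61, adjusted p = 0.977). Among the Fgf23cKO cultures these late osteoblast genes were highest in the first and lowest in the third, so their spread was wide. Alpl, alkaline phosphatase, was at 552, 461 and 291 CPM against 679, 956 and 825 CPM (0.92, SE 0.24, adjusted p = 0.231), again without overlap. The cultures did not overlap in 21.2% of all stroma genes tested. Runx2, the transcription factor that opens the osteoblast lineage, was at 695, 526 and 382 CPM against 849.5, 773 and 787 CPM (0.59, SE 0.20, adjusted p = 0.298), and Sp7, which acts after it, at 109, 127 and 54.3 CPM against 123, 148 and 134 CPM (0.48, SE 0.29, adjusted p = 0.518). Of 11 osteoblast transcription factors, 10 had a positive difference, with a median of 0.48 and none called, and in 4 the double knockout cultures lay above all others, beside 10.1% of all stroma genes. The bone matrix and mineralization list was evenly divided, with 8 of 16 positive and a median of -0.04.

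Matrix and contractile genes of the stroma had mostly positive differences and no call, beside 0.108% of all stroma genes called. Of 14 collagens outside the gate, 10 had a positive difference (median 0.39). So did 16 of 18 collagen processing genes (median 0.36) and 14 of 16 contractile genes (median 0.40). The median over all genes tested in stroma was -0.0056. Col6a1, a chain of the pericellular collagen VI, was at 334, 281 and 336 CPM against 521, 471 and 631 CPM (0.77, SE 0.14, adjusted p = 0.1303), and Col6a2 at 235, 186 and 236 CPM against 349, 354 and 465 CPM (0.83, SE 0.16, adjusted p = 0.135). Fibromodulin, Fmod, which organises collagen fibrils, was at 189, 119.8 and 179 CPM against 322, 278 and 318 CPM (0.91, SE 0.18, adjusted p = 0.136). The groups did not overlap for these 3 genes, and each missed the threshold. Over all stroma genes tested, 21.2% did not overlap, with Dmp1KO/Fgf23cKO above in 10.1%. Fibronectin, Fn1, had the opposite sign, at 2326, 2662 and 2927 CPM against 2086, 1872 and 1620.3 CPM (-0.50, SE 0.13, adjusted p = 0.223). Mylk, the kinase that activates myosin light chain, was at 90.5, 129.7 and 125 CPM against 259, 171 and 216 CPM (0.90, SE 0.19, adjusted p = 0.171), and smooth muscle actin, Acta2, overlapped at 658, 1370.1 and 840 CPM against 1348, 649 and 1526 CPM.

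Of 18 FGF receptor and ERK response genes tested in stroma, Fgfr2 alone passed, beside 0.108% of all genes tested there. Fgfr1, the other receptor of the osteoblast lineage with a high count, was at 445, 404 and 275 CPM against 332, 388 and 286 CPM (-0.16, SE 0.20, adjusted p = 0.755). The ERK phosphatase Dusp6, which ERK signalling induces, was at 54.8, 40.7 and 58.9 CPM against 31.7, 27.5 and 27.8 CPM (-0.83, SE 0.16, adjusted p = 0.135), and Phlda1 at 74.2, 94.7 and 79.9 CPM against 51.5, 41.3 and 45.1 CPM (-0.85, SE 0.14, adjusted p = 0.107). Dusp6 and Phlda1 were lower in every double knockout culture than in any other, without a call. In 3 of the 18 genes the double knockout cultures lay below all others, beside 11.1% of all stroma genes. Igf1 was at 134, 111 and 167 CPM against 88.1, 92.7 and 91.04 CPM (-0.60, SE 0.15, adjusted p = 0.216) and Bmp4 at 23.2, 15.5 and 8.79 CPM against 38.9, 34.7 and 38.5 CPM (1.19, SE 0.29, adjusted p = 0.2097), also without overlap or call. The remaining lists held no call in stroma. Cholesterol synthesis was positive in 16 of 16 members with a median of 0.71. In 8 of them the double knockout cultures lay above all others, beside 10.1% of all stroma genes. Hmgcs1 was at 36.3, 63.9 and 46.3 CPM against 94.2, 130.2 and 73.99 CPM (1.04, SE 0.27, adjusted p = 0.229). The lysosome list was positive in 1 of 22 members with a median of -0.22, and in 4 of 22 with stroma cells at the macrophage level left out.

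The effect of genotype was then compared between the compartments of the same cultures. The difference between the stroma effect and the macrophage effect passed the threshold in 61 of 14513 genes (0.42%), 46 with the higher change in stroma and 15 with the lower. Pclaf, a factor of DNA replication, had the largest difference among the named genes at 3.46 (SE 0.33, adjusted p = 0.0305). In stroma Pclaf was at 5.86, 2.48 and 1.53 CPM against 24.98, 16.3 and 33.3 CPM. It passed the stroma filter on low counts only through Dmp1KO/Fgf23cKO, where it is higher, so no test of it within stroma is given. In macrophages Pclaf was at 59.3, 55.8 and 50.9 CPM against 35.5, 28.2 and 37.2 CPM (-0.72, SE 0.10, adjusted p = 0.002299). The other named genes were Pcdh7 (1.91), the volume-regulated channel subunit Lrrc8d (-1.61), Lrmp (-1.60), Dmpk (1.58) and Fhit (-1.52). Lrrc8d was at 34.3, 58.98 and 45.1 CPM against 22.1, 16.8 and 18.2 CPM in stroma and at 118, 123 and 118 CPM against 148, 155 and 147 CPM in macrophages. Dmpk was at 60.7, 92.2 and 39 CPM against 68.8, 84.4 and 72.9 CPM in stroma and at 80.6, 81.3 and 52.8 CPM against 30.3, 26.4 and 29 CPM in macrophages. Fgfr2 also differed between the compartments, by 1.35, as did Csf1, by -1.28, and Phlda1, by -1.47. Of 16 cell cycle members, 2 passed, Ube2c (2.28) and Cdk1 (1.75), and all 16 had the higher change in stroma, with a median of 1.45. Of the 16 cholesterol synthesis members, 0 passed.

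Single cells held a large part of the cell cycle UMIs of the stroma. In the 3 Dmp1KO/Fgf23cKO cultures a single cell held 81.7, 48.1 and 60.3% of the Pclaf UMIs, 86.6, 53.1 and 63.3% of the Ube2c UMIs and 75.7, 66.4 and 64.3% of the Prc1 UMIs. Over the 5100 stroma genes with an average of at least 5 on the log2 CPM scale, the median of this share in Dmp1KO/Fgf23cKO was 7.35%, and 0.549% of these genes had 50% or more of their UMIs in 1 cell. Of 59 genes with a difference between compartments that were tested in stroma, 9 reached 50%. No such level was required of these 59, and some were seen in few cells, such as Pbk in 5, 6 and 3 Dmp1KO/Fgf23cKO stroma cells. A gene with few UMIs can reach a high share in 1 cell, so the 9 of 59 and the 0.549% are not like for like. Pclaf was found in 10.4, 11.9 and 7.55% of Fgf23cKO stroma cells and 10.8, 10 and 14.3% of Dmp1KO/Fgf23cKO stroma cells, which overlap (thinned to 10000 UMIs, 5, 3.57 and 0% and 5.08, 5.88 and 7.5%). For the list of 16 as a whole, the cell with the most UMIs held 32.8, 23.8 and 20.4% of the list in Fgf23cKO and 41.2, 28.6 and 35.8% in Dmp1KO/Fgf23cKO. These cells had 422, 568 and 118 stromal and 167, 90.4 and 14.8 macrophage gate UMIs per 10000 in Fgf23cKO, so those of the first 2 cultures also reached the macrophage level. In Dmp1KO/Fgf23cKO they had 120.3, 1387 and 179 stromal and 14, 14.8 and 16.1 macrophage gate UMIs per 10000, the second under the macrophage gate in all 3 cultures. Without scaling factors, the list stood at 209.9, 120.2 and 149 CPM against 265, 289 and 274 CPM with these cells. Without them it stood at 145, 95.7 and 125 CPM against 160.2, 213 and 182 CPM. The groups did not overlap either way, but the nearest cultures lay closer without these cells. The part of single cells in the difference was not tested.

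**Figure D4:**
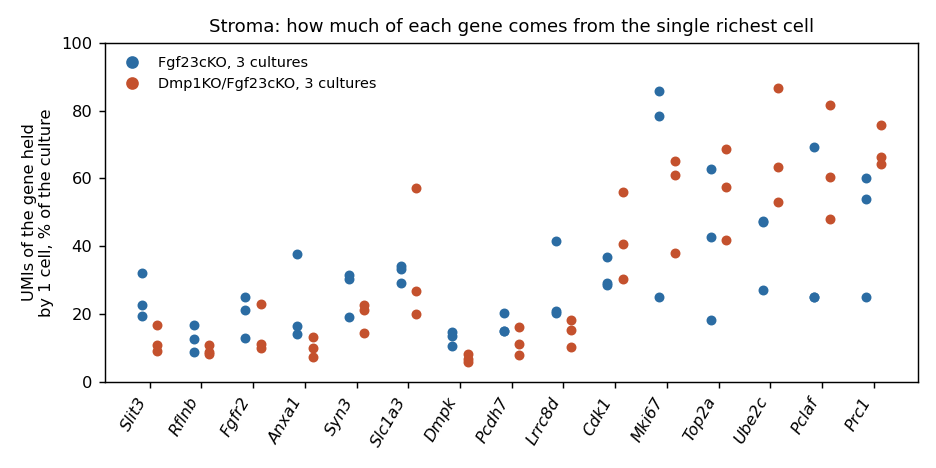
Share of a gene's stroma UMIs, in percent, that came from the single cell with the most of them, for named stroma genes, genes with a difference between compartments and cell cycle genes, with 1 point per culture. Slit3, Rflnb and Fgfr2 lie low, while Pclaf, Ube2c and Prc1 reach 81.7%, 86.6% and 75.7% in Dmp1KO/Fgf23cKO.

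The same gates were applied to the other pair of genotypes, Dmp1KO (Dmp1-/-, 2 cultures used here) and WT (Dmp1+/+, 3 cultures), whose floxed Fgf23 is intact because they carry no Cre, an addition made after the first results were seen. These genotypes come from 2 further reactions, so each difference again holds the difference between reactions. WT cells were also shallower, with a median macrophage of 7244, 7263 and 7753 UMIs against 23190 and 21120 in Dmp1KO and a median stroma cell of 14370, 12490 and 13614 against 17537 and 18920, and the part of depth in these differences was not tested. In macrophages 9614 of 13769 genes (69.8%) differed between Dmp1KO and WT. Of the 3821 genes called on the Fgf23-deleted background, 43.4% had the same direction on the intact background, beside 45.3% of all genes tested. Of the 24 named macrophage genes, 10 changed in the same direction and 13 in the opposite direction at the threshold, and for 22 the difference between the 2 effects itself passed, as it did for 63.1% of all genes tested. The named genes were chosen for a large change on the Fgf23-deleted background, which is part of that difference, so the 22 are no separate support. Hal was at 86.5, 77.3 and 84.8 CPM in WT and 56.4 and 51.6 CPM in Dmp1KO (-0.61), so its effect differed between backgrounds by -5.22 on the log2 scale. Vsig4 fell on both, from 144, 139 and 176 to 10.4 and 13.9 CPM on the intact background (-3.66), and Marco from 343, 454 and 499.6 to 14.4 and 14.9 CPM (-4.89). Ctsk went the other way, with 99.4, 80.1 and 135 CPM in WT and 312 and 274 CPM in Dmp1KO (1.48). Ltc4s also went the other way, with 71.02, 87.02 and 81.6 CPM in WT and 30.8 and 38.6 CPM in Dmp1KO (-1.21). Cd83, Gcn1, Rasgrp3 and Gas7 rose on both backgrounds, by 0.54, 0.38, 0.67 and 1.42 on the intact one, and Cd207 and Lyz1 fell on both.

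In stroma 3081 of 12401 genes (24.8%) differed between Dmp1KO and WT, the difference between the effects passed in 15.7%, and 9 of the 13 genes called on the Fgf23-deleted background had the same direction, beside 51.5% of all genes tested. Fgfr2 was at 131, 123 and 167 CPM in WT and 116 and 119 CPM in Dmp1KO (-0.27), and its effect differed between the backgrounds by 1.36. Anxa1 rose on the intact background, from 529, 450 and 456 to 748 and 773 CPM (0.67), against its fall on the Fgf23-deleted one. Syn3 fell on both, with 63.9, 55.5 and 62.2 CPM in WT and 36.5 and 39.6 CPM in Dmp1KO (-0.67). Slit3 and Rflnb had positive differences that missed the threshold on the intact background (0.19 and 0.30).

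**Figure D5:**
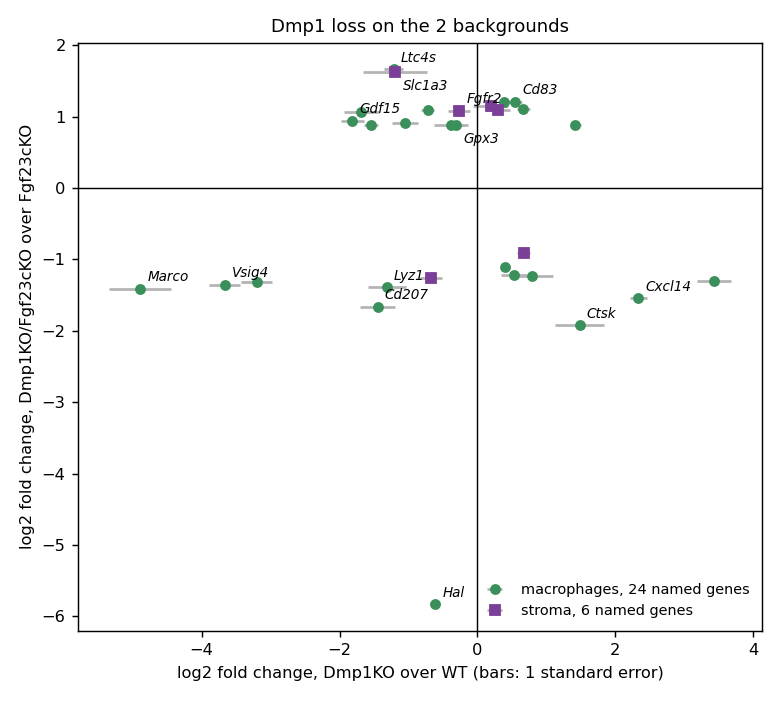
Log2 fold change of the named genes for Dmp1 loss on the intact background (Dmp1KO over WT, x axis, bars 1 standard error) and on the Fgf23-deleted background (Dmp1KO/Fgf23cKO over Fgf23cKO, y axis), for 24 macrophage genes (circles) and 6 stroma genes (squares). Points lie in all 4 quadrants, with Hal at -0.61 and -5.83 and Ltc4s at -1.21 and 1.66.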

How the data were processed

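Cell Ranger 7.0.1 made the deposited counts, the authors having assigned barcodes to cultures by CellPlex tags; the submitters' processing notes name mm10. The deposited values are UMI counts per gene and cell for 32285 genes, not normalized, in 15 of the 16 samples. Raw UMIs were summed per culture and compartment. Sums were compared with edgeR 4.0.16 (R 4.3.3): TMM factors, filterByExpr, quasi-likelihood fits with robust dispersion and Benjamini-Hochberg adjusted p under 0.1, without the 11 gate genes. The difference between compartments came from an interaction model with culture as a block. Each SE is the absolute log2 fold change divided by the square root of its quasi-likelihood F statistic, not a separate estimate. Listed genes carry GENCODE M21 positions (GRCm38) for 32158 identifiers. The 12 genes per direction and compartment with the largest change among called genes with an average log2 CPM of at least 5, no overlap and a symbol that is no Gm, Rik or clone name were named, with 6 for the difference between compartments and up to 4 members per list. No doublet caller was run, and untagged cells (samples numbered 4) entered only an alternative. Members and lists were chosen with earlier results of these data known. Replicates are separately tagged cultures, and no pair agreed within sampling noise (chi-square per gene 3.01 to 20.6). Limits on shares cover counting error only. DESeq2 1.42.0 was an alternative. Some list members are counted but not reported here by name. Data were simulated from these counts and their fitted dispersions, with changes planted only in genes with an average log2 CPM of at least 5. Among the planted genes, 2-fold changes were recovered in 83.0% (stroma) and 99.4% (macrophages) of cases, and 1.5-fold changes in 29.6% and 99.1%. Recovery in weaker genes was not examined. Each draw held many more planted changes than the 13 stroma genes called in the data, which makes the adjusted p threshold easier to pass. In the data, stroma genes such as Spp1 and Hmgcs1 differed by more than 2-fold without a call. The recovery in stroma thus does not give the power of the stroma test, and an uncalled stroma gene is not thereby unchanged. With 11942 and 12718 genes tested, a mean of 19.8 and 27.6 unchanged genes per draw were also called.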

Additional observations from a re-analysis of the deposited data

Results flagged for a closer look

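The effect of Dmp1 loss on the Fgf23-deleted background differed between stroma and macrophages in 61 genes by an interaction term. The named ones, as stroma minus macrophages on the log2 scale, were Pclaf (3.46), Pcdh7 (1.91), Lrrc8d (-1.61), Lrmp (-1.60), Dmpk (1.58) and Fhit (-1.52). For Pclaf, 1 stroma cell held between 48.1 and 81.7% of the UMIs of each Dmp1KO/Fgf23cKO culture, and the part of single cells in the difference was not tested.

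The effect of Dmp1 loss also differed between the Fgf23-deleted and the intact background, by a test of the difference itself. It did so in 8695 macrophage genes (63.1% of those tested) and 1942 stroma genes (15.7%). Among them were 22 of the 24 named macrophage genes and 4 of the 6 named stroma genes. The named genes were chosen for a large change on the Fgf23-deleted background, which is part of this difference, so their counts are no separate support. In macrophages the difference on the log2 scale was -5.22 for Hal, -3.41 for Ctsk, 3.47 for Marco, 2.30 for Vsig4 and 2.87 for Ltc4s. In stroma it was 1.36 for Fgfr2 and 2.82 for Slc1a3. The 4 genotypes were run in 4 droplet reactions, so a difference between backgrounds cannot be told apart from a difference between reactions, and WT cells were shallower than Dmp1KO cells.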

How the results depend on the processing

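The count of 13 stroma genes moved with most settings. It was 0 at an adjusted p under 0.05, 147 without a filter on low counts, 78 with a replicate block, 28 with stricter gates (10 shared), 36 with cells thinned to 2000 UMIs (2 shared), 488 with the untagged sample added, 230 with all tagged cultures in 1 fit and 366 with DESeq2. Leaving out 1 culture gave between 0 and 65, with 0 without any of the Dmp1KO/Fgf23cKO cultures and 65, 8 and 57 without Fgf23cKO cultures 1, 2 and 3. The 3821 macrophage genes became 717 after thinning (636 shared) and between 1898 and 4296 without 1 culture, with 2229 and 1898 without Dmp1KO/Fgf23cKO cultures 1 and 2, and 4170 with a replicate block. The 61 genes that differed between compartments became 18 at an adjusted p under 0.05, 208 without the filter, 240 with no replicate block (no culture term), 161 with stricter gates, and between 0 and 157 without 1 culture (157 without Fgf23cKO culture 1, and 34, 8 and 0 without Dmp1KO/Fgf23cKO cultures 1, 2 and 3). Same-numbered cultures of the 2 genotypes correlated at -0.13, 0.19 and 0.069 in stroma and 0.0040, 0.026 and 0.067 in macrophages in their deviations from the group means. Differently numbered cultures correlated at between -0.31 and 0.26 in stroma. The labels do not say whether a replicate number pairs samples, and these few values cannot decide it.

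The mean stroma share was 1.53 percentage points higher in Dmp1KO/Fgf23cKO, 3.99 without a cell filter and between 0.344 and 3.28 without 1 culture (an alternative chosen after seeing the data), and the macrophage share was 0.811 points higher, or between -1.11 and 2.12. Values of genes that were not called changed sign for Bglap in stroma (-0.034 with stricter gates, -0.016 after thinning, -0.35 to 0.84 without 1 culture), Csf1 in stroma (0.43 after thinning, -0.20 to 0.11 without 1 culture) and Adgre1 in macrophages (-0.033 to 0.20 without 1 culture). Of the 24 named macrophage genes 20 kept their call under every alternative run, the others being Marco, Fabp7, Pstpip2 and Lyz1, and none of the 6 named stroma genes did. Thinning leaves fewer UMIs and other settings leave fewer samples or genes, and the cause of these changes was not tested. Stroma had 143 and 247 cells in Fgf23cKO and Dmp1KO/Fgf23cKO, against 1143 and 1788 macrophages.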

Other observations

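Macrophage genes outside the lists, chosen after their values were seen, include Apod, apolipoprotein D, at 3.54, 14.1 and 26.4 CPM in Fgf23cKO against 0.203, 0.126 and 0.129 CPM in Dmp1KO/Fgf23cKO, and Csmd1, a large complement regulator, at 1.53, 23.8 and 56.7 CPM against 0.406, 0.379 and 0.45 CPM. The Fgf23cKO cultures differed widely among themselves in both genes, while all double knockout cultures were low.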
